A study of Mus musculus with 6 samples.

Results

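The report covers 10 airway genes in mouse lung, matched by symbol in a table of 49315 genes. They are Scgb1a1, Scgb3a1, Scgb3a2, Cyp2f2, Bpifa1, Bpifb1, Muc5b, Muc5ac, Reg3g and Trp63, and they were chosen by name as genes of club, goblet and basal cells of the conducting airways. All 10 were found once in the table, 9 reached 10 reads in at least 1 library, and 8 reached 50 reads. Muc5ac did not reach 10 reads in any library.

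RNA was sequenced from dissociated lungs of male C57BL/6 mice (C57BL/6J in the study's methods), 21 days after oropharyngeal instillation of saline (sham) or Bleomycin sulfate (BLM), an agent that injures the lung and is used to model fibrosis. Each library came from a pool of 2 to 3 lungs of the same treatment, and the age of these mice was not given in the sources used here. Cells were taken unsorted, or sorted by an antibody to Lamp1, a lysosomal membrane protein, into a Lamp1-depleted and a Lamp1-enriched fraction, which gave 6 libraries of 1 per condition. The libraries held 30236120 (BLM Lamp1-depleted) to 52918696 (BLM Lamp1-enriched) counted reads. Lamp1 itself was at 319 CPM (read counts scaled to a common library total) in sham unsorted cells, 146 in the sham depleted and 491 in the sham enriched fraction, and at 501, 111 and 378 in the same order after BLM. Its transcript was therefore higher in the enriched than in the depleted fraction with each treatment, by 1.75 (95% counting interval 1.71 to 1.79) in sham and 1.77 (1.71 to 1.83) in BLM on the log2 scale. In BLM the unsorted cells had more Lamp1 transcript than the enriched fraction.

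Conducting airways are lined by several epithelial cell types. Club cells secrete secretoglobins and carry cytochrome P450 enzymes that detoxify inhaled compounds, goblet cells and glands make gel-forming mucins, and basal cells are the stem cells of the larger airways. After injury, secretory and basal cells can divide and take on other epithelial fates. Among the genes described here, Scgb1a1 encodes the main secreted protein of club cells and Scgb3a1 and Scgb3a2 are further secretoglobins. Cyp2f2 is a club cell P450, Bpifa1 and Bpifb1 are secreted proteins of airway defence, Muc5b and Muc5ac are the gel-forming airway mucins, Reg3g is an antimicrobial lectin, and Trp63 encodes the basal cell transcription factor p63.

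A single library stood for each condition, so no difference between sham and BLM has a replicate check. Log2 ratios are given with 95% Clopper-Pearson intervals of the share of reads. These cover counting error only, and not variation between animals or sorts. Reads made by PCR are not independent molecules, so the intervals can be too narrow even for counting error. A ratio was computed where the higher of the 2 libraries had at least 10 reads. A scarce gene passes this filter only through the library where it is high, so its direction is set by the filter, and several medians and counts are also given over the genes with at least 10 reads in both libraries, called the genes counted in both. Library totals for CPM were scaled by the TMM factors of edgeR, which correct totals for a few very abundant transcripts. The BLM Lamp1-depleted library stands apart in this respect, since 38.4% of its reads fell on a single gene, Gm26917, against 0.88% to 7.10% in the other libraries. In bulk RNA, fewer cells of a type and less RNA per cell cannot be told apart.

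Scgb1a1 was the most abundant of the 10 genes per kilobase of exon in all 6 libraries, at 203 CPM per kb in sham unsorted cells. Cyp2f2 followed at 9.53, then Bpifa1 at 3.55, Scgb3a2 at 3.30 and Scgb3a1 at 2.72. Among these last 3, neighbours in the order did not differ beyond the counting interval. Bpifb1 was at 0.735, Muc5b at 0.168, Reg3g at 0.146, Trp63 at 0.0540 and Muc5ac at 0.00766 on the same scale, and of these only Muc5b and Reg3g did not differ beyond the interval. Scgb1a1 and Cyp2f2 together held 74.5% (BLM Lamp1-enriched) to 88.2% (BLM unsorted) of the reads of the 10 genes. The order differed in other libraries. In the BLM enriched fraction Scgb3a1 took second place at 10.5 CPM per kb, beyond the interval of Cyp2f2 at 3.88. In the BLM depleted fraction Scgb3a2 at 2.58 and Cyp2f2 at 2.52 did not differ beyond the interval. Scgb3a1 lay above Bpifa1 beyond the interval in the sham depleted fraction and in BLM unsorted cells.

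**Figure D1:**
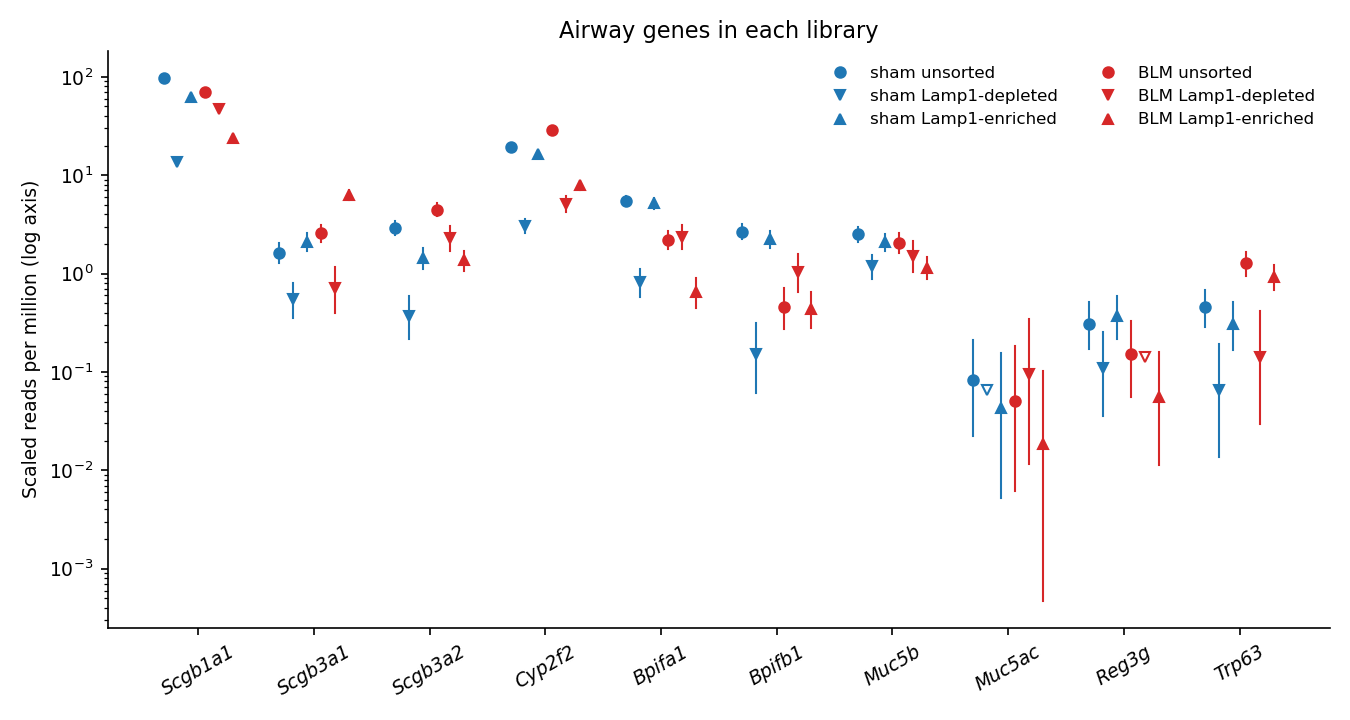
CPM (log axis) of the 10 genes in the 6 libraries, by treatment (colour) and fraction (symbol), with exact 95% Poisson intervals as vertical lines and open symbols at 3 reads for libraries with 0 reads. By CPM the depleted fraction is the lowest of the 3 sham libraries for all 10 genes. This is within counting error for Muc5ac and, against unsorted cells, for Reg3g. After BLM it lies above the enriched fraction for Scgb1a1, Scgb3a2, Bpifa1 and Bpifb1 and, within counting error, for Muc5b and Muc5ac. Muc5ac in sham and Reg3g in BLM depleted cells had 0 reads, so their open symbols are drawn above the enriched points.

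The first comparison asked how sorting on Lamp1 divided the airway genes in sham lung. All 9 genes tested were higher in the Lamp1-enriched than in the Lamp1-depleted fraction, each beyond its counting interval, where 40.5% of all genes were, as were 6 of 6 genes counted in both. The median log2 ratio was 2.04, against -0.01 over all 21867 genes tested. In this comparison 5 of 9 genes were at least 4-fold higher, where 15.6% of all genes were, and 0 of 9 were at least 4-fold lower, where 12.6% of all genes were. The 5 became 3 of 9 with total counts, with or without Gm26917, and 3 of the 6 genes counted in both. Scgb1a1 was at 96.7 CPM in unsorted cells, 13.8 in the depleted and 61.8 in the enriched fraction. Its ratio of enriched to depleted was 4.49-fold (4.12 to 4.90). The 2 Bpif genes had the highest ratios of the 9, with Bpifb1 at 13.7-fold (6.83 to 37.2) from 103 against 7 reads and Bpifa1 at 6.28-fold (4.47 to 9.24). The interval of Bpifa1 overlapped that of Cyp2f2, at 5.34-fold (4.47 to 6.46). Muc5b had the lowest ratio, at 0.81 (0.32 to 1.33) on the log2 scale. Trp63 had 14 reads in the enriched and 3 in the depleted fraction, so its ratio of 2.04 (0.37 to 4.65) is loosely bounded. Neither fraction held more Scgb1a1 than the unsorted cells, as the enriched fraction was also lower than unsorted by a log2 ratio of -0.65 (-0.71 to -0.58).

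After BLM the same sort gave another picture, and the genes no longer went together. Of 8 genes tested, 3 were higher and 5 were lower in the enriched fraction, with a median log2 ratio of -0.57 against 0.29 over all 21838 genes tested. With total counts only, these medians were -0.02 and 0.85. Genes at least 4-fold higher were 2 of 8, Scgb3a1 and Trp63, where 19.2% of all genes were (1 of 7 counted in both, with 2 of 7 higher and 5 lower), and 0 of 8 were at least 4-fold lower, where 12.0% of all genes were. Scgb1a1 was at 47.5 CPM in the depleted and 23.9 in the enriched fraction, which makes it 1.99-fold lower (1.83 to 2.16) in the enriched one. Bpifa1 was 3.63-fold lower (2.35 to 5.85), and Scgb3a2 1.67-fold lower (1.14 to 2.44), while Bpifb1 had a log2 ratio of -1.22 (-2.14 to -0.34). These 4 genes were thus higher in enriched cells of sham lung and lower in enriched cells of BLM lung, each time beyond the interval. Of these, Bpifb1 had 7 reads in sham depleted cells. It passed the filter in sham only through the enriched library, so the filter set its direction there. A ratio above 0 in sham and below 0 in BLM, each beyond the interval, was seen for 2.31% of the 20463 genes tested in both treatments. The opposite change was seen for 1242 genes. With total counts in place of TMM factors, only Scgb1a1 and Bpifa1 of the 4 kept both directions beyond their intervals.

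Cyp2f2, the P450 of the same cells, did not turn over. It was 1.53-fold higher (1.24 to 1.91) in the enriched fraction after BLM, against 5.34-fold (4.47 to 6.46) in sham. Scgb3a1 went the other way, and had a log2 ratio of enriched to depleted of 3.12 (2.41 to 4.0) in BLM lung against 1.92 (1.30 to 2.64) in sham. The difference between the 2 log2 ratios, BLM minus sham, was -3.16 (-3.33 to -2.98) for Scgb1a1, -1.80 (-2.20 to -1.40) for Cyp2f2 and 1.2 (0.24 to 2.17) for Scgb3a1. These intervals are normal approximations from the 4 read counts. They do not cover the scaling, since total counts only moved the median of all genes by 0.55 in the BLM sort and -0.17 in the sham sort. Muc5b was at -0.41 (-1.05 to 0.25) after BLM, a difference between fractions not detectable at this depth, and its sign turned to 0.15 with total counts only.

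**Figure D2:**
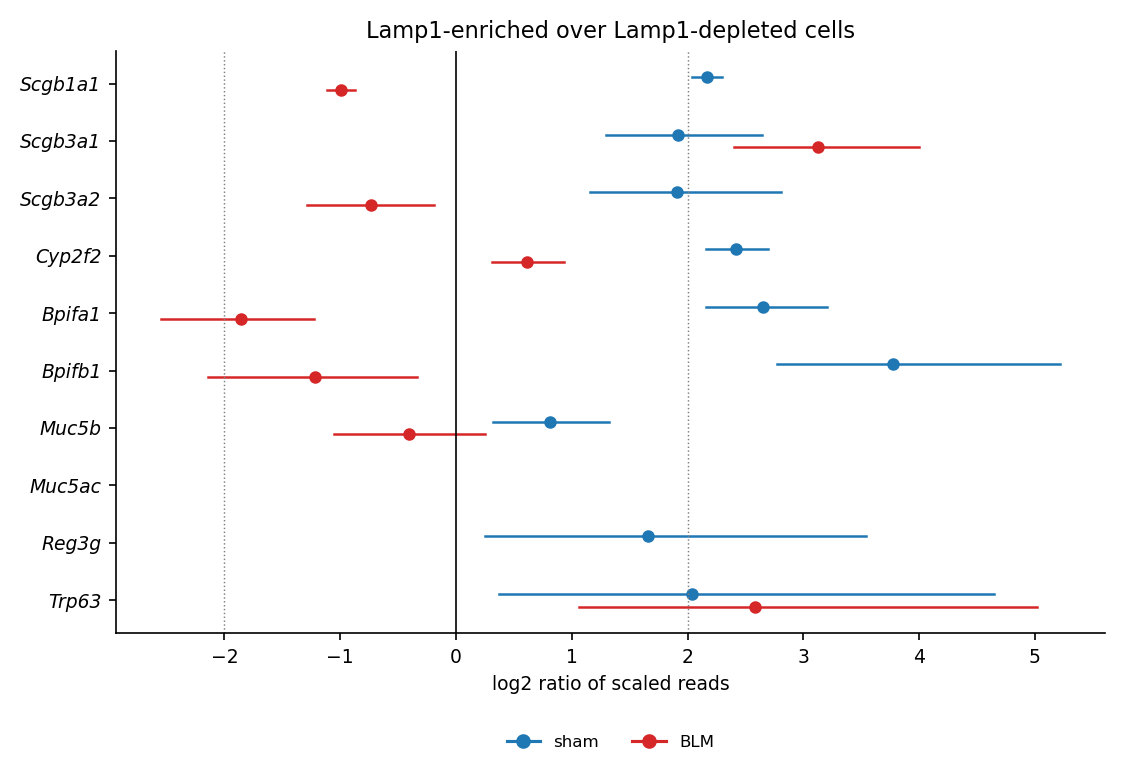
Log2 ratio of scaled reads, Lamp1-enriched over Lamp1-depleted, for the genes tested, in sham (blue) and BLM (red), with 95% counting intervals as lines and 4-fold dotted. All 9 sham points lie right of 0, while the BLM points spread from -1.86 for Bpifa1 to 3.12 for Scgb3a1.

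The 4 sorted libraries allow a test of the sorting contrast alone, with 1 residual degree of freedom. The prior degrees of freedom of the fit were infinite, so its p-values used a spread shared among genes and not each gene's own. The quasi-likelihood test of edgeR with treatment as a block tested 20593 genes at a Benjamini-Hochberg adjusted p under 0.05, and it says nothing of sham or BLM separately. It called 2 of 8 airway genes higher in the enriched fraction, where 21.5% of all genes were called higher, and 0 of 8 lower, where 19.2% of all genes were called lower. By edgeR, Scgb3a1 had a log2 fold change of 2.43 (adjusted p = 0.000393) and Cyp2f2 one of 1.43 (adjusted p = 0.00497), and both were higher in the enriched library of each of the 2 treatments. With total counts only, 4436 genes were called in place of 8386, and Cyp2f2 was not among them, at a log2 fold change of 1.71 (edgeR quasi-likelihood test, Benjamini-Hochberg adjusted p = 0.057), again higher in the enriched library of each of the 2 treatments. Trp63 did not pass, at 2.32 (edgeR adjusted p = 0.121), nor did Scgb1a1, at 0.49 (edgeR adjusted p = 0.334), whose ratios in the 2 treatments had opposite signs.

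The next comparison asked what BLM did to the airway genes in the whole, unsorted dissociate. The median log2 ratio of BLM over sham was -0.29 over 9 genes tested, against -0.07 over all 22772 genes, and it turned to 0.15 over the 8 genes with at least 50 reads. None of the 9 (0 of 9) was at least 4-fold higher, where 4.96% of all genes were, and 1 of 9, Bpifb1, was at least 4-fold lower, where 5.0% of all genes were. The median covers opposite values. Scgb1a1 was lower after BLM by 1.38-fold (1.32 to 1.45), Bpifa1 by 2.48-fold (1.94 to 3.20) and Bpifb1 by 5.71-fold (3.54 to 10.1). Higher were Cyp2f2, at a log2 ratio of 0.59 (0.46 to 0.71), Scgb3a2, at 0.62 (0.29 to 0.95), and Scgb3a1, at 0.65 (0.21 to 1.10). Trp63 had 22 reads in sham and 50 after BLM, which is 2.75-fold higher (1.66 to 4.85). The interval of Muc5b spanned 0, as did that of Reg3g, with 15 and 6 reads.

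In the Lamp1-enriched fraction, more of the genes were lower after BLM. The median log2 ratio was -1.07 against -0.000265 over all 21671 genes tested. Here 0 of 9 genes were at least 4-fold higher, where 3.59% of all genes were, and 3 of 9 were at least 4-fold lower, where 2.09% of all genes were (2 of 8 counted in both). The 3 were Bpifa1 (7.91-fold lower, 5.61 to 11.8), Bpifb1 (4.99-fold lower, 3.24 to 8.29) and Reg3g, whose log2 ratio of -2.55 (-5.16 to -0.96) rests on 17 and 3 reads. Scgb1a1 was 2.58-fold lower (2.42 to 2.76) and Cyp2f2 2.09-fold lower (1.86 to 2.36). Cyp2f2 therefore was lower after BLM in the enriched fraction and higher in unsorted cells. Scgb3a1 and Trp63 were the 2 genes on the other side. Scgb3a1 was at 2.11 CPM in the sham and 6.29 in the BLM enriched fraction, which is 2.98-fold higher (2.38 to 3.78), and Trp63 was 2.95-fold higher (1.64 to 5.91) from 14 and 50 reads. Scgb3a2, at -0.08 (-0.58 to 0.42), was not distinguishable between treatments at this depth.

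In the Lamp1-depleted fraction all 7 genes tested had log2 ratios above 0, and 5 of them beyond their intervals, where 29.2% of all genes were. The median was 1.53 (1.13 over the 6 genes counted in both) against -0.20 over all 20852 genes tested. Genes at least 4-fold higher were 2 of 7, Bpifb1 and Scgb3a2, where 5.36% of all genes were (1 of 6 counted in both), and 0 of 7 were at least 4-fold lower, where 7.65% of all genes were. Scgb1a1 was 3.45-fold higher (3.12 to 3.82) from 627 and 1004 reads, in spite of the smaller BLM library. Scgb3a2 was 5.90-fold higher (3.44 to 11.3) from 17 and 48 reads, and Bpifb1 6.27-fold higher (2.80 to 18.8) from 7 and 22 reads. This comparison depends on the scaling of the BLM depleted library. With total counts only, the median of the airway genes was 0.81, 0 of 7 genes were at least 4-fold higher, the median of all genes moved by -0.72, and the signs of Scgb3a1 and Muc5b turned to -0.34 and -0.36. Scgb1a1 was then at a log2 ratio of 1.07, and Cyp2f2, at 0.02, no longer differed between treatments. Of the genes past 4-fold, 41.2% were higher with TMM factors and 16.4% with total counts. The same change of scaling took that share from 49.8% to 36.0% in unsorted cells and from 61.6% to 75.4% for the sort in BLM, and the share of quasi-likelihood calls that were higher from 52.7% to 64.7%. Reg3g had 5 reads in sham and 0 after BLM in this fraction, where 3 reads would be 0.142 CPM.

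**Figure D3:**
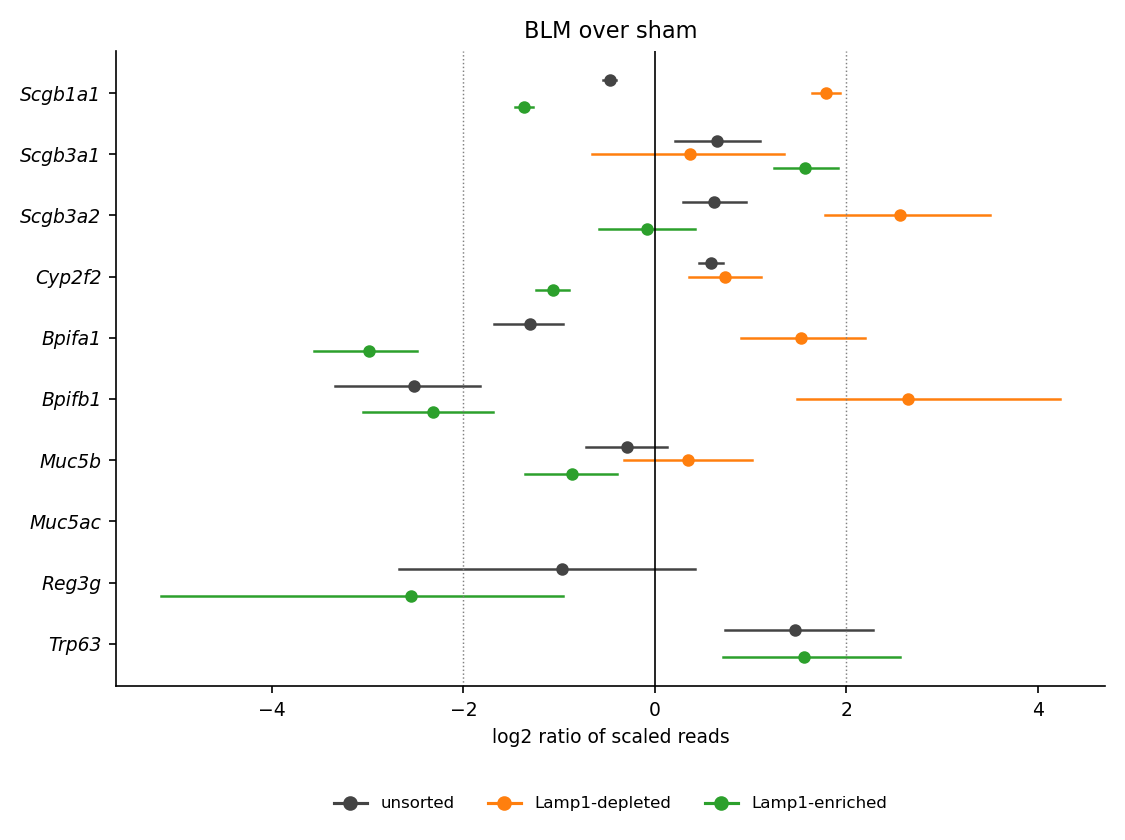
Log2 ratio of scaled reads, BLM over sham, in unsorted cells (black), the Lamp1-depleted (orange) and the Lamp1-enriched fraction (green), for the genes tested, with 95% counting intervals as lines and 4-fold dotted. Scgb1a1, Bpifa1 and Bpifb1 lie left of 0 in unsorted and enriched cells and right of 0 in depleted cells, a pattern that Scgb3a1 and Trp63 do not have.

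Ratios of genes within a library need no scaling between libraries. Scgb3a1 had 1.68 reads per 100 Scgb1a1 reads in sham unsorted cells (1.33 to 2.10), 3.99 (2.56 to 5.94) in the sham depleted and 3.41 (2.76 to 4.18) in the sham enriched fraction. After BLM it had 3.66 (2.97 to 4.47) in unsorted cells, 1.49 (0.83 to 2.48) in the depleted fraction and 26.3 (23.3 to 29.6) in the enriched fraction. The BLM enriched library thus lay far above the other 5, none of whose intervals reached it. Trp63 had 3.83 reads per 100 Scgb1a1 reads (2.83 to 5.09) in the BLM enriched fraction and 1.81 (1.34 to 2.40) in BLM unsorted cells, and 0.30 to 0.49 in the other 4 libraries. Cyp2f2 had 20 to 26.6 in the 3 sham libraries, 41.5 (38.7 to 44.5) in BLM unsorted cells, 32.8 (29.4 to 36.6) in the BLM enriched fraction and only 10.8 (8.74 to 13.1) in the BLM depleted fraction. The Scgb1a1 reads of the BLM depleted fraction were therefore accompanied by fewer Cyp2f2 reads than in any of the other libraries. Scgb3a2 had 2.32 to 3.0 in sham and 4.78 to 6.39 after BLM. Muc5b was highest in the sham depleted fraction, at 8.61 (6.40 to 11.4), against 2.60 to 4.75 elsewhere.

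**Figure D4:**
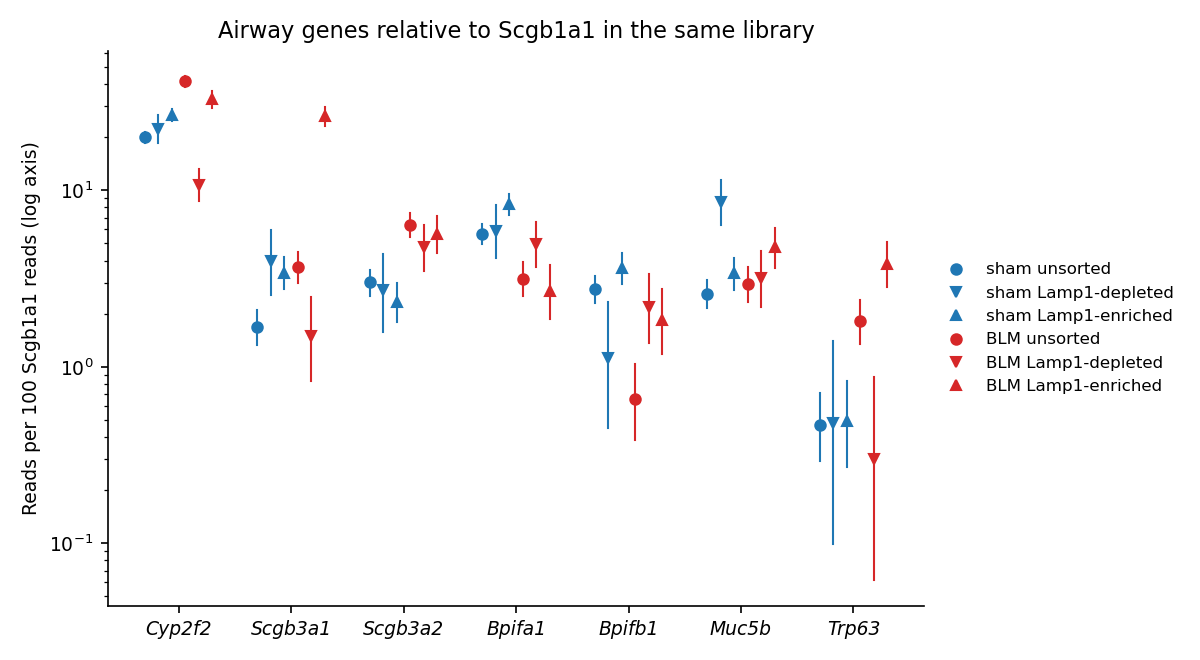
Reads of 7 genes per 100 Scgb1a1 reads of the same library (log axis), by treatment and fraction, with 95% Clopper-Pearson intervals as vertical lines. Scgb3a1 stands at 26.3 in the BLM Lamp1-enriched library and between 1.49 and 3.99 in the other 5.

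The gene starts of Bpifa1 and Bpifb1 lie 47.9 kb apart on chromosome 2 in the same orientation (GRCm38), with 1 gene between them. Their ratios had the same sign in all 5 comparisons above, as did those of Scgb1a1 and Muc5b. Their reads had a Pearson r of 0.889 across the 6 libraries on the log2 scale, and Bpifa1 had one of 0.933 with Muc5b, 0.886 with Scgb1a1 and -0.10 with Scgb3a1, so the pair does not stand out. These are descriptions over 6 libraries that share their treatments and fractions. Promoter windows of RefSeq matched 5 of the 10 genes by symbol. The windows of these 2 genes, of Scgb3a1, which was higher after BLM in the enriched fraction, and of Cyp2f2 are shown, 5′ to 3′ on the gene's strand and from 250 bases before the RefSeq start (GRCm38.p6) up to the first annotated start. Bpifa1 lies at chr2:154142630-154142879 on the plus strand, Bpifb1, at the first of its 2 RefSeq starts, at chr2:154190568-154190817 on the plus strand, Scgb3a1 at chr11:49663345-49663594 on the plus strand, and Cyp2f2 at chr7:27119705-27119908 on the plus strand. Capitals mark matches on either strand to the TATA box (TATAAA) or to the forkhead (TGTTTNC), NKX2 type (CAAGTG), AP-1 (TGANTCA), C/EBP (TTGCNNAA) and ETS (AGGAAG) motifs.
Bpifa1: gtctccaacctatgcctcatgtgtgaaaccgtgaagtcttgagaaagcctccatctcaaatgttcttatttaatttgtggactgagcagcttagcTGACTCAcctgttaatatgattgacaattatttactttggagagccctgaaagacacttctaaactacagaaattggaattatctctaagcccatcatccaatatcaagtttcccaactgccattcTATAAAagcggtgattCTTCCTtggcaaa
Bpifb1: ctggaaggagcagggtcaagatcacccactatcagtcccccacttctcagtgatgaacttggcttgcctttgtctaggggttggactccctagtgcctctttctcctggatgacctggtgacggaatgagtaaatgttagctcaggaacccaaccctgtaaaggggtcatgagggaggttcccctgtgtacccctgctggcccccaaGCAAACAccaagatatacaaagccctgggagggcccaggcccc
Scgb3a1: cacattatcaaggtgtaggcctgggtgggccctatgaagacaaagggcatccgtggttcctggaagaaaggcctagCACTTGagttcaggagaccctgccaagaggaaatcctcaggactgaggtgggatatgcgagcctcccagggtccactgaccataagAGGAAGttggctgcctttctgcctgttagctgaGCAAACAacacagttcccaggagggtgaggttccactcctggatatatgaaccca
Cyp2f2: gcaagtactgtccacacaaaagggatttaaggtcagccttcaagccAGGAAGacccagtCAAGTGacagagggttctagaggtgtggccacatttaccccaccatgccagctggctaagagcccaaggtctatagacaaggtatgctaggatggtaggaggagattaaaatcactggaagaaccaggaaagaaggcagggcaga

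The Bpifa1 window held a TATA box, at 29 bases before the window end, an AP-1 and an ETS match, each once. The Bpifb1 window held the forkhead motif once and none of the other 5 motifs, while the window of its second RefSeq start, not shown, held 2 ETS matches. The Scgb3a1 window held a forkhead, an NKX2 type and an ETS match, and the Cyp2f2 window an NKX2 type and an ETS match. Among the first 250 bases of all 32851 promoter windows, 12.4% held the TATA box, 17.8% the forkhead, 11.6% the NKX2 type, 6.75% the AP-1, 9.56% the C/EBP and 29.5% the ETS motif. A match is a description of the letters and not a binding site.

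Other genes of the same cells were read from lists of club, goblet and basal cell genes. Of 20 further club cell genes, 16 were tested in the sham sort, 12 were higher in the enriched fraction and 10 at least 4-fold (15.6% of all genes), with a median log2 ratio of 2.49. Of the 9 counted in both, 6 were higher and 5 at least 4-fold. After BLM the median of the sort was 0.50, and 10 of 14 were higher (0.31 and 6 of 10 counted in both). The median over all genes tested was 0.29 in this BLM sort. It stands beside each list median of the BLM sort below, for which 0 is not the middle of all genes. Aldh1a1, an aldehyde dehydrogenase that makes retinoic acid, had 4478 reads in sham and 1026 in BLM unsorted cells, a log2 ratio of -1.83 (-1.93 to -1.73), and was lower after BLM in each fraction. Gsta3, a glutathione transferase, was at -2.98 (-3.24 to -2.73) in unsorted cells. Cyp2b10, a second P450, was at -0.94 (-1.14 to -0.73) in the enriched fraction and 2.08 (1.43 to 2.82) in the depleted fraction, the same opposition as Scgb1a1. Cyp2s1 and Hp, which is haptoglobin, were higher after BLM in unsorted cells, at 2.04 (1.85 to 2.24) and 1.51 (1.37 to 1.66). Over the list the median for BLM over sham was -0.49 in unsorted cells (10 of 17 lower; -0.32 and 9 of 16 counted in both), -0.94 in the enriched fraction (12 of 15 lower) and 0.69 in the depleted fraction (9 of 12 higher). The edgeR quasi-likelihood test called 6 of 12 club cell genes higher and 2 of 12 lower in the enriched fraction. Such list counts stand beside 21.5% of all genes called higher and 19.2% called lower, and several lie near these shares.

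Several goblet and gland genes had few reads, while the list summed to 7866 reads in sham unsorted cells, 5613 of them from Sec14l3. Of 20, only 14 were tested in unsorted cells and 10 in each sorted fraction. BLM over sham had a median log2 ratio of 0.42 in unsorted cells (10 of 14 higher), 0.31 in the enriched (8 of 10 higher) and 1.33 in the depleted fraction (9 of 10 higher). Muc4, a membrane mucin, was at 2.02 (1.76 to 2.29) in unsorted and 3.73 (2.99 to 4.68) in depleted cells. Sorting gave a median of 1.57 for sham and -0.02 for BLM (0.5 over genes counted in both), and edgeR's quasi-likelihood test called 4 of 10 higher and 2 of 10 lower. Sec14l3 was the most abundant gene of the list in unsorted cells, with 5613 reads in sham and 4322 in BLM. By family, 3 of 69 genes with an Scgb symbol reached 10 reads, as did 4 of 14 Bpif genes, 11 of 15 Muc genes and 1 of 4 Reg3 genes. Bpifb5, a further Bpif gene, differed from Bpifa1 and Bpifb1, with 8, 7 and 9 reads in sham unsorted, depleted and enriched cells and 32, 17 and 73 after BLM.

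Several basal and squamous genes had few reads too. Of 20, 17 were tested in the enriched fraction, where their BLM to sham ratios had a median log2 of 0.80, but 6 of the 17 passed through 1 library only and 3 had a library at 0 reads. Of the 11 counted in both, 10 were higher after BLM, with a median of 0.34, and 0 were at least 4-fold higher, where 3.59% of all genes were. In unsorted cells the median was 0.42 (13 of 19 higher) and in the depleted fraction -0.07 (5 of 10 higher; -0.29 and 4 of 9 counted in both). The basal keratins themselves had few reads. Krt5 had 8, 2 and 2 reads in sham unsorted, depleted and enriched cells and 17, 6 and 49 after BLM. Krt17 had 0 reads in all 3 sham libraries and 18, 0 and 15 after BLM. Krt14 had 9, 1 and 0 reads in sham and 21, 13 and 24 after BLM. These 3 keratins were chosen for the text after their values were seen, and other members of the list went the other way. Of genes counted in both, 4 of 11 unsorted, 5 of 9 depleted and 1 of 11 enriched ratios were below 0. Among genes with at least 50 reads, the lowest ratios were those of Col17a1, Dapl1 and Sfn in the same order. The summed reads of the list mostly came from Itga6, an integrin that endothelial cells also carry, with 16133 reads in sham unsorted cells. Sorting gave a median of 1.51 for sham and 0.47 for BLM, which were 0.01 and -0.47 over the genes counted in both, and the edgeR quasi-likelihood test called 5 of 12 higher, among them Itga6 and Krt4, and 5 of 12 lower.

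Of 20 airway defence genes, 12 were tested in unsorted cells, where 6 were higher after BLM, with a median log2 ratio of 0.17. The medians for BLM over sham were 0.50 in the enriched fraction (6 of 11 higher; 0.24 and 5 of 10 counted in both) and 1.33 in the depleted fraction (7 of 10 higher), and those of the sort were 1.46 in sham and -0.01 in BLM (1.26 and -0.13 over genes counted in both). Slpi, a protease inhibitor, was at 1.53 (1.32 to 1.76) in unsorted and 2.93 (2.53 to 3.37) in depleted cells. Lcn2, an iron-scavenging lipocalin, was at 0.64 (0.38 to 0.90) and 3.40 (2.90 to 3.98). Summed neutrophil markers were also higher in BLM than in sham depleted cells, at 362 against 53.8 CPM. Whether the Slpi and Lcn2 reads came from airway cells was not tested. Tslp, an epithelial cytokine, was lower, at -2.13 (-2.79 to -1.55) in unsorted cells. The edgeR quasi-likelihood test called 3 of 11 higher and 1 of 11 lower. Lyz2 of this list is also a macrophage marker and held 680191 of its 683061 reads in BLM unsorted cells. Of 16 transcription factors of airway epithelium, 14 of 15 tested were higher in the enriched fraction in sham and 14 of 16 in BLM, with medians of 2.38 and 1.46. Over the factors counted in both these were 10 of 11 and 6 of 8, with medians of 2.14 and 1.22, and edgeR's quasi-likelihood test called 7 of 15 higher and 1 of 15 lower. Nkx2-1, the lung epithelial homeodomain factor, was at 0.09 (-0.09 to 0.27) for BLM over sham in unsorted cells, and Sox9 at 2.01 (1.41 to 2.68). The medians of the factors for BLM over sham were -0.28 in unsorted, 0.29 in depleted and -0.16 in enriched cells, and the last 2 were 0.65 and -0.34 over the factors counted in both.

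Markers shared by epithelial cells give a level to set beside Scgb1a1. The summed level of 16 pan-epithelial genes was 112 CPM in sham and 197 in BLM unsorted cells, 48.2 and 72.1 in the depleted, and 78.8 and 102 in the enriched fraction, and no gene of the list was at 0. Their median log2 ratio of BLM over sham was 0.60 in unsorted (14 of 16 higher), 0.87 in depleted (9 of 16 higher) and 0.25 in enriched cells (12 of 16 higher). Cdh1, the epithelial cadherin, was the most abundant of them in unsorted cells. In sham depleted cells it was Spint2, with 736 of the 2196 reads of the list. Which cells these reads came from was not tested, so ratios to this sum in depleted cells need not be ratios within epithelium. Scgb1a1 had 86.2 reads per 100 pan-epithelial reads in sham unsorted cells and 35.6 after BLM, 78.4 and 23.4 in the enriched fraction, and 28.6 and 65.9 in the depleted fraction. Scgb3a1 had 1.45 and 1.30 in unsorted cells but 2.68 and 6.14 in the enriched fraction. Cyp2f2 had 17.2 and 14.7 in unsorted cells, 20.9 and 7.67 in the enriched fraction, and 6.38 and 7.09 in the depleted fraction. Sorting gave this list medians of 1.75 for sham and 0.66 for BLM (1.52 and 0.50 over genes counted in both). The quasi-likelihood test of edgeR called 7 of 16 higher and 2 of 16, Spint2 and St14, lower.

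Ciliated cells share the airway lining. Their 16 markers had, for BLM over sham, a median of 2.25 in unsorted cells (13 of 15 higher). Of the 12 counted in both there, 10 were higher and 6 at least 4-fold, where 4.96% of all genes were. The median was 1.87 in depleted cells (8 of 8 higher), but -0.15 in the enriched fraction (4 of 10 higher, and -0.23 and 2 of 8 counted in both). Foxj1, the factor that switches on motile cilia, had 98 reads in sham and 423 in BLM unsorted cells. The sum of the markers was 83.9 and 113 CPM in unsorted, 16.6 and 29.2 in depleted and 68.4 and 25 in enriched cells of sham and BLM. Tppp3 was the most abundant in each library, and held 3099 of 4073 reads in sham unsorted and 2741 of 3145 in sham enriched cells. It was lower after BLM, with 1135 and 862 reads, while most of the list was higher in unsorted cells. For the sort, 8 of 8 were higher in sham (median 1.21) and 2 of 10 in BLM (median -0.60), and edgeR's quasi-likelihood test called 2 of 10 higher and 0 of 10 lower. Of 13 neuroendocrine, tuft and ionocyte markers 6 were tested in unsorted cells and 5 were lower after BLM, with a median of -1.51 (-0.66 over the 4 counted in both). Their medians were 0.36 in the depleted and -0.43 in the enriched fraction for BLM over sham (0.11 and -0.20 over the 5 counted in both), and 1.64 in sham and 1.49 in BLM for the sort (0.51 with a gene at 0 reads taken at its bound, and 2.09 over the 3 counted in both), and edgeR's quasi-likelihood test called 3 of 6 higher and 2 of 6 lower.

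**Figure D5:**
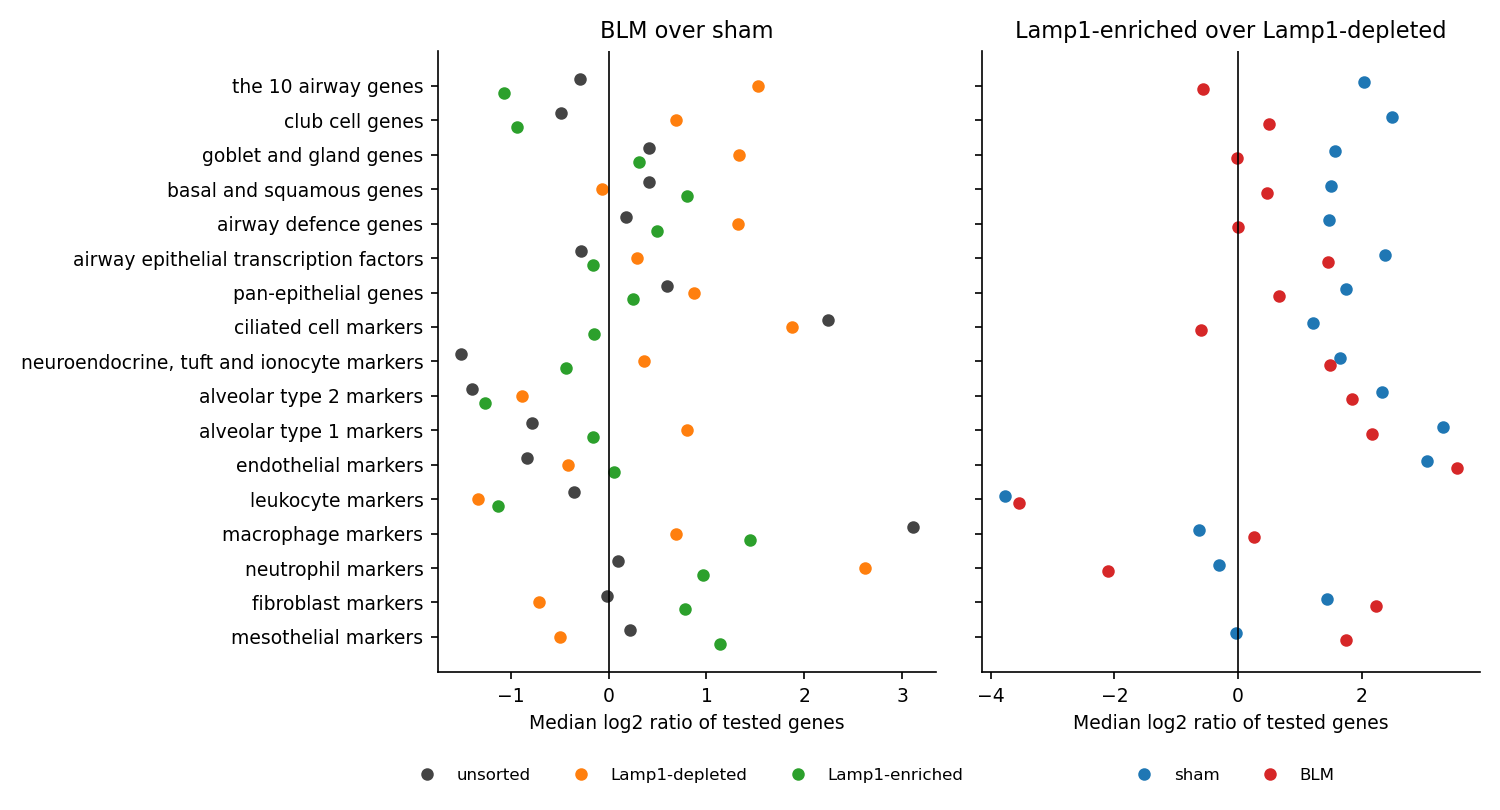
Median log2 ratio of the tested genes of each list, for BLM over sham (left; unsorted, depleted and enriched cells) and for Lamp1-enriched over Lamp1-depleted (right; sham and BLM). For the sort, the 10 airway genes and the ciliated cell list are right of 0 in sham and left of 0 in BLM, at -0.57 and -0.60. The goblet and defence lists are near 0 in BLM, and leukocyte markers are near -3.77 and -3.54. All genes tested had a median of -0.01 in the sham and 0.29 in the BLM sort.

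The fractions also differed in their other cells, and the part of this in the airway results was not tested. Endothelial markers were higher in the enriched fraction for 10 of 10 genes with each treatment (medians 3.06 in sham and 3.54 in BLM), and their sum was 1352 and 9432 CPM in sham depleted and enriched cells and 935 and 9083 after BLM, with Cdh5 or Pecam1 the most abundant. Alveolar type 1 markers were higher for 12 of 12 (medians 3.32 and 2.17) and type 2 markers for 11 of 12 (medians 2.32 and 1.84). Leukocyte markers were lower for 10 of 10 (medians -3.77 and -3.54), with sums of 5583 and 440 in sham and 2577 and 357 in BLM, led by Ptprc in each library. Macrophage markers had medians of -0.63 and 0.26, neutrophil markers of -0.31 and -2.10, fibroblast markers of 1.43 and 2.22 and mesothelial markers of -0.03 and 1.75. No marker was at 0 in these sorted libraries except 1 of 10 neutrophil markers in each sham fraction. The sum of neutrophil markers was 53.8 in sham and 362 in BLM depleted cells, with Csf3r the most abundant, so the library in which Scgb1a1 was higher after BLM was also the one with the highest neutrophil markers. The edgeR quasi-likelihood test called 10 of 10 endothelial, 12 of 12 type 1, 9 of 12 type 2 and 7 of 10 fibroblast markers higher, with 1 of 12 type 2 and 1 of 10 fibroblast markers lower. It called 10 of 10 leukocyte and 7 of 8 neutrophil markers lower, 1 of 9 macrophage markers lower and 2 of 8 mesothelial markers higher.

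With BLM, unsorted cells had more macrophage transcripts, which was not tested as a source of the airway ratios. Their summed level was 2478 CPM in sham and 20144 in BLM, led by Lyz2, and 9 of 9 markers were higher (median 3.11). The medians in the depleted and enriched fractions were 0.69 (0.48 over genes counted in both) and 1.44. Alveolar type 2 markers were lower for 11 of 12 in unsorted cells (median -1.39, and -0.88 and -1.26 in depleted and enriched cells), and type 1 markers for 11 of 12 (median -0.78, and 0.81 and -0.16). Endothelial markers had medians of -0.84, -0.41 and 0.06, leukocyte markers of -0.36, -1.34 and -1.13, neutrophil markers of 0.10, 2.62 and 0.96, fibroblast markers of -0.02, -0.71 and 0.79 and mesothelial markers of 0.22, -0.49 and 1.14 in unsorted, depleted and enriched cells. Over the markers counted in both, fibroblast and mesothelial markers each had a median of -0.25 in depleted cells. The leukocyte sum went the other way from its median in unsorted cells, with 777 CPM in sham and 1865 in BLM.

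The genes whose levels most resembled those of each member over the 6 libraries were ranked by Pearson r among 17934 genes with at least 50 reads in the highest library. For Scgb3a1 they included Scn3b, Il1r1 and Atp8b1, at r of 0.994 or above, with 47387, 8742 and 17682 reads in the BLM enriched fraction, their highest library. For Trp63 they included Cdh3 (r = 0.994), a cadherin of basal cells, which had 16, 2 and 11 reads in sham and 67, 2 and 57 after BLM. For Cyp2f2 Rnd3 came first (r = 0.991), and for Scgb1a1 Erc2 (r = 0.984), with 99 reads at most. Bpifa1 and Bpifb1 shared Pak6 among their 5 nearest genes (r = 0.953 and 0.973). With 6 libraries that share treatments and fractions, many genes reach such values.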

How the data were processed

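The authors deposited a table of raw read counts per gene for the 6 libraries, with 49315 genes, of which 174 rows had no symbol. The submitters' processing notes name Trimmomatic 0.36, STAR 2.5.2b, featureCounts of Subread 1.5.2 and DESeq2, and reads were 150 bases long. From these counts, TMM factors (edgeR 4.0.16, R 4.3.3) were computed over the 6 libraries, and log2 ratios were taken with a prior of 0.5 reads scaled to library size with pandas 2.3.3, scipy 1.17.1 and numpy 2.4.6 under Python 3.11.15, with figures by matplotlib 3.10.9. Libraries were grouped by treatment and fraction from the labels, 1 library per condition. The 5 comparisons were BLM over sham within each of the 3 cell preparations, and Lamp1-enriched over Lamp1-depleted within each treatment, with 4-fold as the threshold. Only the sorting contrast was tested, by edgeR's quasi-likelihood test on the 4 sorted libraries, blocked by treatment (1 residual degree of freedom, biological coefficient of variation 0.316).

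At these depths 1 CPM was 21.1 reads in the BLM Lamp1-depleted library and 39.4 to 54.5 reads in the others, and 3 reads were taken as the floor. Exon lengths came from GENCODE M21 (GRCm38). RefSeq promoters were taken by symbol for 5 of the 10 genes, with windows on chromosome 18, where Scgb3a2 lies, left out. Besides the 10 genes, lists of club, goblet and gland, basal and squamous, airway defence, transcription factor, pan-epithelial, ciliated, neuroendocrine, tuft and ionocyte, alveolar type 1 and type 2, endothelial, leukocyte, macrophage, neutrophil, fibroblast and mesothelial genes were read. From each list the text may name the 3 most abundant genes per kilobase and the highest and lowest ratio of each comparison among genes with at least 50 reads, and also the 5 genes most like each member and the family genes with at least 50 reads. The most abundant gene of a list by reads is also named, and Krt5, Krt14 and Krt17 fall outside this rule. The members and lists were chosen with earlier results of these data known. The scripts were tested on simulated data. Alternatives were DESeq2 1.42.0 size factors and its Wald test, total counts with and without Gm26917, a prior of 2 reads, minimums of 1 and 50 reads, log2 thresholds of 1 and 3, thinning to the smallest library (seed 1), a fit of all 6 libraries, TMM factors without the BLM Lamp1-depleted library, and a minimum of 10 reads in both libraries.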

Additional observations from a re-analysis of the deposited data

Results flagged for a closer look

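The log2 ratio of Lamp1-enriched over Lamp1-depleted cells was lower in BLM than in sham by a difference of -4.99 for Bpifb1, -4.51 for Bpifa1, -3.16 for Scgb1a1 and -2.65 for Scgb3a2, with opposite signs in the 2 treatments. This difference was not tested, since each condition had 1 library. For Bpifb1 (-6.34 to -3.64) it rests on 7 reads in sham depleted cells, and Bpifb1 passed the filter in sham only through the enriched library. With total counts only, Scgb1a1 and Bpifa1 alone kept both directions beyond their intervals. The log2 ratio of BLM over sham for Cyp2f2 differed by -1.65 between Lamp1-enriched and unsorted cells, lower after BLM in the first and higher in the second, and this difference was not tested either. Per 100 pan-epithelial reads, Cyp2f2 was lower after BLM in both. It was at 20.9 in sham and 7.67 in BLM enriched cells, and at 17.2 and 14.7 in unsorted cells.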

How the results depend on the processing

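A ratio or median counts as the same within the counting interval of the reported value, and a count within 1.5 times of it. Of 157 recomputed medians and counts, 131 were the same and 26 were not, and of 237 recomputed member ratios, 221 were the same and 16 moved. Included in these are 3 ratios that changed sign, all 3 with total counts only. Of them, Scgb3a1 in depleted cells counted as the same, since it stayed within its interval. With total counts only, the median of BLM over sham in Lamp1-depleted cells was 0.81 in place of 1.53 and members at least 4-fold higher there were 0 in place of 2, members at least 4-fold higher in the sham sort were 3 in place of 5, and 4436 genes and 1 member were called for the sort in place of 8386 and 2. The median over all genes moved by -0.26, -0.72, -0.17 and 0.55 in unsorted cells, depleted cells, the sham sort and the BLM sort. With total counts without Gm26917, members 4-fold higher in the sham sort were 3, and with DESeq2 size factors members 4-fold lower in the BLM sort were 1 in place of 0. With at least 50 reads, the unsorted median was 0.15 in place of -0.29 and members 4-fold higher in depleted cells were 0. With at least 1 read, members 4-fold lower in depleted cells were 1 in place of 0. At a log2 threshold of 1, members higher and lower were 1 and 2 in unsorted cells and 2 and 5 in enriched cells, members higher were 4 in depleted cells and 8 in the sham sort, and members lower in the BLM sort were 2. At a threshold of 3, members lower were 0 in unsorted and 0 in enriched cells, and members higher were 0 in depleted cells, 1 in the sham sort and 1 in the BLM sort. Of 2 alternatives chosen after seeing the data, TMM factors without the BLM Lamp1-depleted library left the medians and counts the same in the 3 comparisons that do not use that library, unsorted and enriched cells and the sham sort. With at least 10 reads in both libraries, the unsorted median was 0.15, and members at least 4-fold higher were 1 in depleted cells, 3 in the sham sort and 1 in the BLM sort in place of 2, 5 and 2. The cause of these shifts was not tested. The fit of the sort was blocked by treatment, which pairs the enriched and the depleted library of each treatment. No other pairing was possible because the labels number no replicates. The sources used here do not say whether the sorted fractions and the unsorted cells of a treatment came from the same pooled lungs. No sorted library could be left out because 3 libraries leave the blocked fit no residual degrees of freedom.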
